A study of Homo sapiens with 6 samples.

Results

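The genes described here encode the enzymes that add or remove chemical marks on histones and DNA. They were chosen by name alone, as the protein-coding genes whose symbols belong to the lysine methyltransferase (KMT, SETD, NSD, EHMT, EZH, DOT1L), lysine demethylase (KDM), acetyltransferase (KAT, HAT1), deacetylase (HDAC, SIRT), arginine methyltransferase (PRMT), peptidylarginine deiminase (PADI) and DNA methylation (DNMT, TET, UHRF) families. In all, 88 of the 30618 genes in the count table matched these names. Grouped by family name, they comprise 40 writers of histone marks, 36 erasers, 9 genes of DNA methylation and 3 deiminases. Some are best known for substrates other than histones, among them SETD3, SETD6, SIRT3 and SIRT5. Of the members, 87 passed the filter on low counts, beside 16749 genes in all. The remaining member, DNMT3L, a catalytically inactive partner of the de novo DNA methyltransferases, had a mean count of 0.167 per library and was not tested.

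Histone tails carry methyl groups on lysine and arginine and acetyl groups on lysine, which writers place and erasers take off, and the residue that is marked determines whether the mark is associated with active or silent chromatin. In DNA, DNMT1 copies cytosine methylation onto the new strand after replication, with UHRF1 guiding it to hemimethylated sites, while TET dioxygenases oxidise the methyl group. Deiminases convert arginine of histones and other proteins to citrulline, after which that arginine can no longer be methylated.

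RNA-seq was performed on ARPE-19, an established human retinal pigment epithelial (RPE) cell line, exposed to 50 mM glucose as a model of diabetic retinopathy. The NC group (n = 3 libraries) received a non-targeting control siRNA and the siEIF1 group (n = 3 libraries) an siRNA against EIF1, the initiation factor that helps the ribosome select its start codon. High glucose and transfection are shared by both groups, and each siRNA is 1 sequence, so an effect of its other targets cannot be told apart from that of EIF1. The libraries were described as biological replicates of a polyadenylated, directional RNA preparation.

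EIF1 stood at 294, 281 and 281 FPKM (fragments of a gene scaled to a length of that gene and to the mapped fragments of the library) in NC replicates 1 to 3 and at 24.3, 22.7 and 23.5 FPKM in siEIF1 replicates 1 to 3, a log2 fold change of -3.58 (SE 0.055, edgeR adjusted p = 1.08e-13). Total counts ranged from 26499929 to 31431479 per library. Within a group, the counts of every pair of libraries differed by more than sampling noise (chi-square per degree of freedom between 3.0 and 14.1). The largest value was that of siEIF1 replicates 1 and 3, with 8.64 for siEIF1 replicates 2 and 3 and 7.46 for siEIF1 replicates 1 and 2. Of 17 RPE markers, 15 were listed, with a summed level between 640.92 and 665.04 FPKM in the NC and between 698.99 and 725.78 FPKM in the siEIF1 group. KRT18, KRT8, EZR and BEST1 supplied most of this sum. OTX2 was at 17.8 and MITF at 5.84 FPKM in the NC group, RPE65 and TTR were not listed, and the pigment enzyme TYR was near 0. RLBP1, a retinoid-binding protein, rose from 0.24 to 0.68 FPKM (log2 fold change 1.55, SE 0.26, edgeR adjusted p = 0.0010). Of 12 markers of other cell types, 10 were listed, with sums between 0.89 and 1.05 FPKM that came mostly from CD68.

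Compared to the NC group, 17 of the 87 tested members rose in the siEIF1 group (19.5%) and 10 fell (11.5%) at an adjusted p under 0.05 in the edgeR quasi-likelihood test. Among all 16749 tested genes, 10.2% rose and 10.4% fell by the same rule, 20.6% together, so the members rose more often than the background and fell about as often. With the added limit of a fold change above 2 or below 0.5, PADI1, PADI2 and PADI3 were called higher and UHRF1 was called lower, against 0.400% of all tested genes called higher and 1.31% called lower. PADI2, with a log2 fold change of 1.07, lay just inside this limit, and the nearest member outside it was EZH2 at -0.63. PADI3 passed the filter on low counts only through the siEIF1 group, where it is high, so its call is not separate evidence. The median log2 fold change of the members was 0.059, against 0.0033 over all tested genes. FPKM did not overlap between the groups for 21 members that were higher (24.1%) and 16 that were lower (18.4%), where 15.2% and 19.8% of all tested genes, 35.0% together, did not overlap. The higher count depended on the libraries used, for members and for all genes alike. Leaving out NC replicate 1 or NC replicate 2 gave 11, leaving out NC replicate 3 gave 9 and leaving out siEIF1 replicate 2 gave 10, where between 6.60% and 7.28% of all tested genes rose. The count was 11 with DESeq2 (9.82% of all genes) and 8 with limma on log2(FPKM + 1) (6.39%).

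Counts by class are given beside the 10.2% of all tested genes that rose and the 10.4% that fell. Of 40 writers, 5 rose (12.5%) and 7 fell (17.5%), with a median log2 fold change of 0.041 that turned to -0.0020 without siEIF1 replicate 3. Of 36 erasers, 9 rose and KDM1B alone fell, with a median of 0.090. Of the 8 tested genes of DNA methylation, UHRF1 and DNMT1 fell and the other 6 did not pass the test, with a median of -0.11. All 3 deiminases rose, with a median of 1.12, under TMM, RLE and upper-quartile scaling alike, but PADI3 was tested only because of its siEIF1 counts. Whether the classes differ from each other was not tested, since genes are not replicates. Seen library by library, the median log2 deviation of the erasers from each gene's mean lay between -0.070 and -0.017 in the NC group and between 0.0065 and 0.083 in the siEIF1 group, without overlap. For the writers these medians overlapped, at -0.070 to 0.020 in the NC and -0.045 to 0.060 in the siEIF1 group, and for DNA methylation they overlapped too, at 0.0014 to 0.19 and -0.26 to 0.051. No such medians were computed over all genes, so the gap for the erasers has no background.

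**Figure D1:**
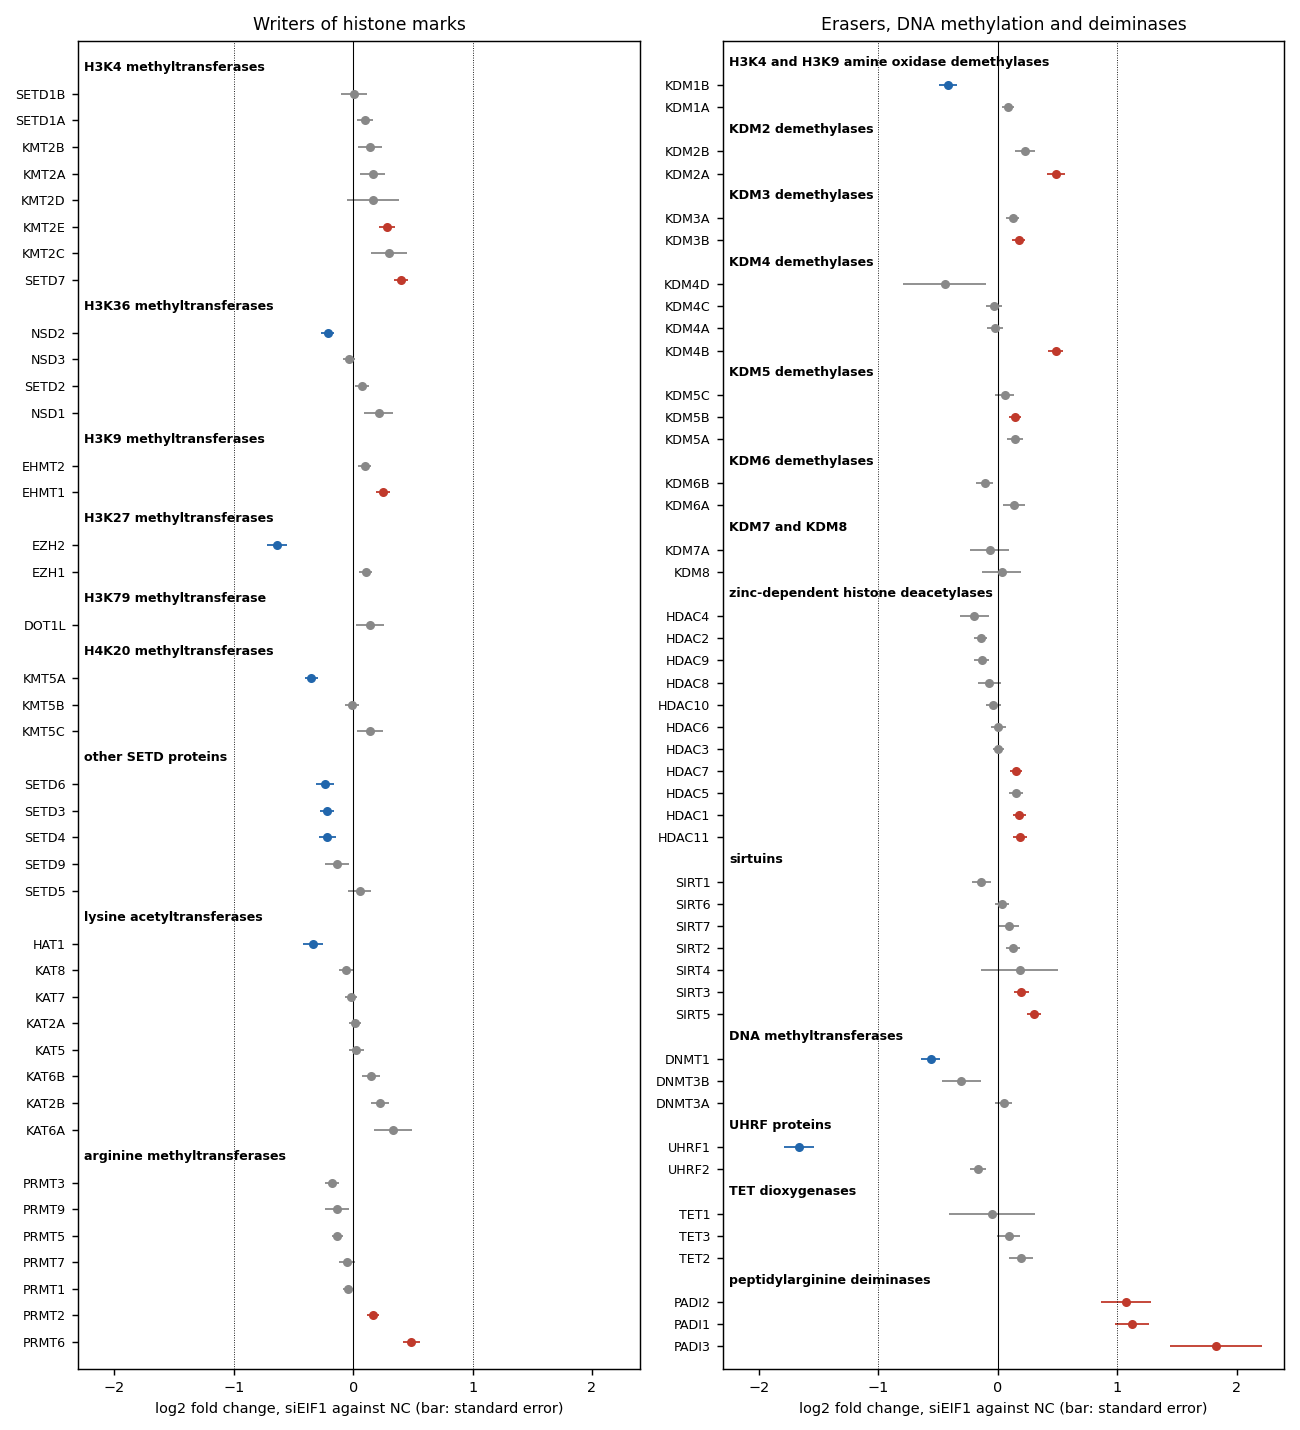
Log2 fold change of siEIF1 against NC (x axis) for 86 tested members (y axis), grouped by family; the points are estimates of the edgeR fit, the bars standard errors, red and blue mark members higher or lower at an adjusted p under 0.05, grey marks the rest, and dotted lines stand at a log2 fold change of -1 and 1. The 3 PADI genes lie to the right of the upper line and UHRF1 at -1.66 lies to the left of the lower one; KDM5D is counted with its family but not shown.

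The maintenance arm of DNA methylation was lower in the siEIF1 group. UHRF1, the reader that brings DNMT1 to hemimethylated DNA (chr19:4903080-4962154, plus strand, GENCODE release 44 on GRCh38), stood at 1.39, 1.25 and 1.41 FPKM in NC replicates 1 to 3 and at 0.46, 0.37 and 0.42 FPKM in siEIF1 replicates 1 to 3. Every siEIF1 library was thus below every NC library. The log2 fold change was -1.66 (SE 0.12, edgeR adjusted p = 1.39e-06), to 0.316 of the NC level, and it stayed between -1.73 and -1.60 whichever library was left out. DNMT1, the maintenance methyltransferase (chr19:10133342-10231286, minus strand), stood at 2.19, 1.87 and 2.15 FPKM in the NC group and at 1.30, 1.26 and 1.59 FPKM in the siEIF1 group. These groups did not overlap either, and the log2 fold change was -0.56 (SE 0.082, edgeR adjusted p = 0.00035). Because these are bulk samples, fewer cells that express a gene and less RNA of it per cell cannot be told apart.

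Promoter sequences from RefSeq (GRCh38.p14) are shown for UHRF1 and DNMT1 as the members of this arm that fell, with 250 bases before and 50 after an annotated start, 5′ to 3′ on the strand of the gene. Capitals mark matches on either strand to 1 of 4 E2F strings, TTTCCCGC, TTTCGCGC, TTTGCCGC and TTTGGCGC. E2F factors are the transcription factors that drive S phase genes. The windows are UHRF1 start 1 (chr19:4909251-4909550), UHRF1 start 2 (chr19:4909894-4910193) and DNMT1 (chr19:10194904-10195203, minus strand).
UHRF1 start 1: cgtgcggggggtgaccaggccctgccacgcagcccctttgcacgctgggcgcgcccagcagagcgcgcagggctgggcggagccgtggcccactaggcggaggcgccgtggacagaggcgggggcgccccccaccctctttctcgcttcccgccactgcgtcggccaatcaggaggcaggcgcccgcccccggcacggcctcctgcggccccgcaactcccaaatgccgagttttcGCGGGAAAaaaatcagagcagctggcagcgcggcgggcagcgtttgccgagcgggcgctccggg
UHRF1 start 2: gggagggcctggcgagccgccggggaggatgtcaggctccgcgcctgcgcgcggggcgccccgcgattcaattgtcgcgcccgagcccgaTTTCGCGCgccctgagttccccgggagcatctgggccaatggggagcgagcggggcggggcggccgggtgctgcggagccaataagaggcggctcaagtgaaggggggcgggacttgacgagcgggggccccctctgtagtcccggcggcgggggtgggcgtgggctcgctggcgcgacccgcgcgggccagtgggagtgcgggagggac
DNMT1: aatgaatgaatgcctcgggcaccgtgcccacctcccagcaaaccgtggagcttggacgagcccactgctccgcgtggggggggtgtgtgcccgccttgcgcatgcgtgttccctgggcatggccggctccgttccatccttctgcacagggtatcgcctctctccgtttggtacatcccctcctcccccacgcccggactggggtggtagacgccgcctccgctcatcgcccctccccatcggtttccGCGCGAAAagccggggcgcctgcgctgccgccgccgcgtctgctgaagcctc

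Counting the start base as 0, the match of UHRF1 start 1 covers bases -14 to -7 on the minus strand of the gene and that of start 2 bases -160 to -153 on its plus strand. In DNMT1 the match covers bases -2 to 5 on the opposite strand. Another UHRF1 window in the same RefSeq table, chr19:4910117-4910416, held no match.

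The other genes of DNA methylation did not pass the test. UHRF2, the paralog of UHRF1 with a similar domain layout, stood at 3.58, 3.15 and 3.2 FPKM in the NC and at 3.06, 2.64 and 3.02 FPKM in the siEIF1 group (log2 fold change -0.17, SE 0.069, edgeR adjusted p = 0.11). Its groups did not overlap in FPKM, although the difference missed the threshold. DNMT3A, a de novo methyltransferase, had a log2 fold change of 0.049 (SE 0.074) and its relative DNMT3B, at 0.47 to 0.77 FPKM, one of -0.30 (SE 0.16). TET1, TET2 and TET3 ranged from -0.05 to 0.19, and TET1, listed at 0.03 to 0.07 FPKM, had an error of 0.36, so a difference was not detectable at this depth. Summed over DNMT, TET and UHRF genes, the level was 9.92 ± 0.52 FPKM in the NC and 7.87 ± 0.59 FPKM in the siEIF1 group (SD, n = 3).

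Among 18 tested partners of DNA methylation, 5 fell and the other 13 did not pass the test. HELLS, the remodeller that opens nucleosomal DNA to methylation, fell by 1.39 on the log2 scale (SE 0.10, edgeR adjusted p = 1.39e-06). CDCA7, which recruits HELLS, fell by 1.19 (SE 0.13, edgeR adjusted p = 4.74e-05). IDH1, which makes the α-ketoglutarate used by TET enzymes and by KDM enzymes other than KDM1A and KDM1B, fell by 0.80 (SE 0.095). GADD45A, which is involved in demethylation and DNA damage responses, fell by 0.62 and PCNA, the replication clamp, by 0.28. UHRF1, HELLS, CDCA7 and PCNA are also in a list of S phase genes, in which 38 of 42 tested genes fell with a median log2 fold change of -0.998. In a list of G2/M genes, 46 of 53 fell, with a median of -1.04. The part of this decline of cell cycle genes in the lower level of UHRF1 and DNMT1 was not tested.

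Of 25 genes grouped by name as lysine methyltransferases, 3 rose (12%, against 10.2% of all tested genes) and 6 fell (24%, against 10.4%). EZH2, the catalytic subunit of Polycomb repressive complex 2 that methylates H3K27 (chr7:148807257-148884321, minus strand), stood at 1.20, 1.09 and 1.14 FPKM in the NC group. In the siEIF1 group it stood at 0.77, 0.66 and 0.74 FPKM, below every NC library. The log2 fold change was -0.63 (SE 0.084, edgeR adjusted p = 0.00016). EZH1, the other H3K27 methyltransferase, was at 5.18 to 5.47 FPKM in the NC and 5.45 to 5.84 FPKM in the siEIF1 group, which overlapped, and its log2 fold change was 0.10 (SE 0.052). Since EZH1 was the more abundant of the pair, their summed level was 6.52 ± 0.12 FPKM in the NC and 6.42 ± 0.27 FPKM in the siEIF1 group (SD, n = 3), a difference within the spread. Polycomb partners that fell included RNF2, PHF19 and EED, and those that rose included CBX6 and JARID2. EED, the EZH2 partner that reads methylated H3K27, fell by 0.36 on the log2 scale (SE 0.086) and RNF2, the ubiquitin ligase of the other Polycomb complex, by 0.45 (SE 0.071), while JARID2, an accessory subunit, was at 0.36 (SE 0.070).

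A RefSeq promoter window of EZH2 (chr7:148884242-148884541, minus strand, GRCh38.p14) is shown with that of KDM1B (chr6:18155172-18155471, plus strand), a demethylase described further on, as the remaining members that fell most and held an E2F string. Capitals mark the match, at bases 1 to 8 after the EZH2 start and at bases -234 to -227 and -216 to -209 before the KDM1B start. Another EZH2 window in the same table, chr7:148883436-148883735, held no match.
EZH2: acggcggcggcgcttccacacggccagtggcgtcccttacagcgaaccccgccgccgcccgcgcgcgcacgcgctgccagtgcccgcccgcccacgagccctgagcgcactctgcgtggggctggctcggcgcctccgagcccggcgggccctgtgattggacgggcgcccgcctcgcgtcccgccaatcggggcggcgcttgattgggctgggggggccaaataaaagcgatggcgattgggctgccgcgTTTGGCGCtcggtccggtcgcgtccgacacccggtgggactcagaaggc
KDM1B: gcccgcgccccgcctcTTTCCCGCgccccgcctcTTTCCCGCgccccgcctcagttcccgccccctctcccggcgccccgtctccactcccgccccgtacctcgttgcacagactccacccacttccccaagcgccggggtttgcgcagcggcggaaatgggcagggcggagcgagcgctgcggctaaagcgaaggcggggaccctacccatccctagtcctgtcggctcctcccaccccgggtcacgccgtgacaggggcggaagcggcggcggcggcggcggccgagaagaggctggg

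Of the 79 members found in the RefSeq promoter table, 8 held such a string (10.1%), against 6.49% of 11225 tested genes and 3.99% of 27305 genes with a promoter. They included 5 of the 10 members that fell, namely UHRF1, DNMT1, EZH2, KDM1B and NSD2, where the NSD2 match lies at bases -77 to -70. Of 16 members that rose, 0 held a match, and of 53 that did not pass the test, 3 did (5.66%). The share among all genes that fell was not computed, so 5 of 10 cannot be read as particular to these enzymes. The cell cycle homology element TTTGAA, on either strand, was found in 1 of the 10 lower and 1 of the 16 higher members, against 13.6% of tested genes and 18.2% of all promoters. By its letters, it cannot overlap any of the E2F strings. These are matches of letters within a fixed window, and binding was not measured.

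KMT5A, the only enzyme that places the first methyl group on H4K20, stood at 8.80, 8.65 and 8.58 FPKM in the NC and at 6.63, 6.39 and 7.09 FPKM in the siEIF1 group. The groups did not overlap, and the log2 fold change was -0.35 (SE 0.053, edgeR adjusted p = 0.00047). KMT5B and KMT5C, which add further methyl groups at the same residue, had log2 fold changes of -0.01 and 0.14 and did not pass the test. NSD2, which dimethylates H3K36, fell by 0.21 (SE 0.056, edgeR adjusted p = 0.016), and this call was lost without NC replicate 2 or siEIF1 replicate 1. Its relative NSD1 went from 2.78, 3.07 and 3.34 FPKM to 2.68, 3.60 and 4.25 FPKM, a spread too wide for a call. SETD3, which methylates actin, SETD6, which methylates a subunit of NF-κB, and SETD4 fell by 0.22, 0.23 and 0.22 on the log2 scale. The SETD4 call was lost whichever library was left out, and those of SETD3 and SETD6 were lost in 2 and 4 of the 6 such fits.

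The methyltransferases that rose were SETD7, KMT2E and EHMT1. SETD7, a monomethyltransferase of H3K4 and of many non-histone proteins, stood at 4.02, 3.71 and 4.12 FPKM in the NC and at 5.13, 4.67 and 5.58 FPKM in the siEIF1 group, without overlap. Its log2 fold change was 0.40 (SE 0.058, edgeR adjusted p = 0.00036). KMT2E, a KMT2 relative that lacks clear catalytic activity, rose by 0.28 (SE 0.064, edgeR adjusted p = 0.0071), from 2.22 to 2.45 FPKM in the NC libraries to 2.61 to 2.98 FPKM in the siEIF1 libraries. EHMT1, which dimethylates H3K9 together with EHMT2, rose by 0.25 (SE 0.059, edgeR adjusted p = 0.0092), a call lost without NC replicate 3. EHMT2 was at 0.096 (SE 0.052) and did not pass. The other 6 writers of H3K4 ranged from 0.0077 to 0.30. Among 12 COMPASS partners, which form the H3K4 methyltransferase complexes, WDR82 fell by 0.31 and PSIP1 by 0.19 on the log2 scale, and the other 10 did not pass. DOT1L, the H3K79 methyltransferase, was at 0.14 (SE 0.12).

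Several long members spread widely between the siEIF1 libraries. KMT2D, the largest H3K4 methyltransferase, read 1.89, 1.90 and 2.31 FPKM in NC replicates 1 to 3 and 1.24, 2.34 and 3.18 FPKM in siEIF1 replicates 1 to 3. Its log2 fold change of 0.17 had an error of 0.22, so the siEIF1 libraries enclosed the whole NC range. KMT2C read 0.40, 0.41 and 0.50 against 0.38, 0.52 and 0.69 FPKM, and KAT6A read 0.68, 0.73 and 0.94 against 0.70, 1.0 and 1.23 FPKM. In each of these genes siEIF1 replicate 3 was the highest of its group and siEIF1 replicate 1 the lowest. Over the members, only the highest library was counted. Of 25 members with a canonical transcript of at least 7000 bases, a limit chosen after the values were seen, 18 were highest in siEIF1 replicate 3 among the siEIF1 libraries (72%). This was so for 26 of the other 62 (41.9%). Among all genes the shares were 65.7% for long and 32.8% for other transcripts, so the pattern was shared with the rest of the transcriptome. The median log2 excess of siEIF1 replicate 3 over the mean of the other siEIF1 libraries was 0.17 for long members and 0.028 for the others. The part of transcript length in it was not tested.

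**Figure D2:**
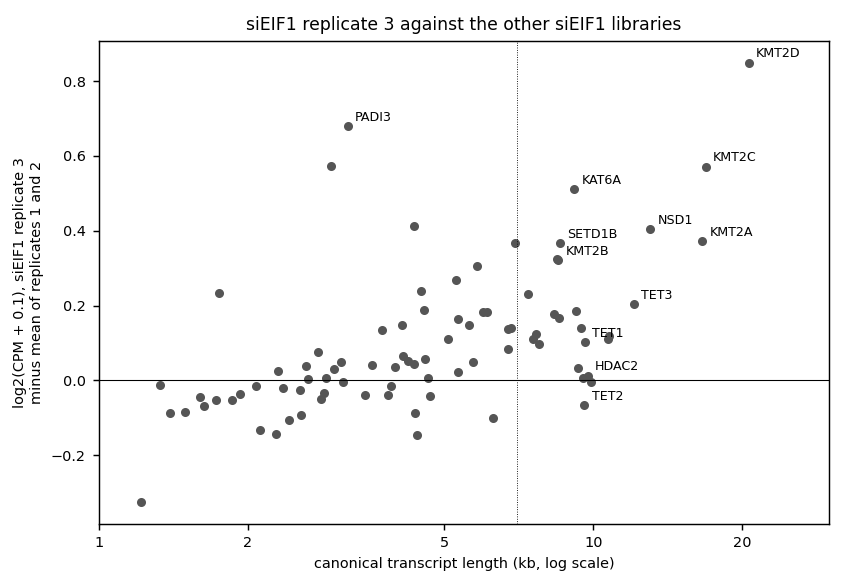
Difference in log2(CPM + 0.1) between siEIF1 replicate 3 and the mean of siEIF1 replicates 1 and 2 (y axis), where CPM is counts scaled to the TMM-adjusted library total. The x axis is the length of the canonical transcript in kb, on a log scale. There is 1 point per tested member other than KDM5D, and a dotted line stands at the limit of 7000 bases. KMT2D, KMT2C, KAT6A, NSD1 and KMT2A lie highest among the long transcripts, and PADI3 lies highest among the short ones.

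Of the 8 acetyltransferases, HAT1, which acetylates newly made histone H4 before it is deposited on DNA, fell and the other 7 did not pass the test. HAT1 stood at 4.67, 3.87 and 3.78 FPKM in the NC and at 3.37, 3.07 and 3.17 FPKM in the siEIF1 group, without overlap (log2 fold change -0.34, SE 0.081, edgeR adjusted p = 0.010). KAT2A, the catalytic subunit of SAGA and the most abundant acetyltransferase at 17.7 FPKM, had overlapping groups and a log2 fold change of 0.015 (SE 0.053). Among 30 acetyltransferase partners, SUPT3H rose by 0.33, and ING3, TADA2A and SUPT7L fell by 0.46, 0.23 and 0.17 on the log2 scale.

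Of the 7 arginine methyltransferases, PRMT6 and PRMT2 rose and the other 5 did not pass. PRMT6, which methylates H3R2 asymmetrically, stood at 4.5, 3.77 and 4.27 FPKM in the NC and at 5.79, 5.54 and 6.0 FPKM in the siEIF1 group. Every siEIF1 library lay above every NC library, with a log2 fold change of 0.49 (SE 0.070, edgeR adjusted p = 0.00029). PRMT2, a coactivator of nuclear receptors, rose by 0.17 (SE 0.048, edgeR adjusted p = 0.026), a call lost in 4 of the 6 fits with 1 library left out. PRMT5, the main symmetric methyltransferase, was the most abundant member of all. It read 38.4, 37.0 and 38.7 FPKM in the NC and 34.7, 32.6 and 35.4 FPKM in the siEIF1 group, without overlap, and its log2 fold change of -0.13 (SE 0.045) missed the threshold at an edgeR adjusted p of 0.051. It passed under 6 of 15 alternatives, among them RLE scaling and the fit without siEIF1 replicate 3.

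Among 18 lysine demethylases, 4 rose (22.2%, against 10.2% of all tested genes) and 1 fell (5.56%, against 10.4%). KDM2A, a demethylase of H3K36 that binds CpG islands, stood at 2.54, 2.54 and 2.63 FPKM in the NC and at 3.10, 3.55 and 4.02 FPKM in the siEIF1 group. KDM4B, which acts on H3K9 and is the neighbour of UHRF1 on chromosome 19 (chr19:4969113-5153598, plus strand), stood at 1.89, 2.01 and 1.92 FPKM against 2.59, 2.53 and 2.93 FPKM. Neither gene overlapped between groups, and both log2 fold changes were 0.49 (SE 0.077 for KDM2A and 0.061 for KDM4B), with edgeR adjusted p-values of 0.00064 and 0.00011. Thus UHRF1 and KDM4B, adjacent on the same strand, moved in opposite directions. KDM3B, which acts on H3K9, and KDM5B, which acts on H3K4, rose by 0.17 and 0.14 on the log2 scale, and these calls were lost in 5 and 6 of the 6 fits with 1 library left out. The KDM5B call was also lost with RLE scaling.

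KDM1B, a flavin-dependent demethylase of H3K4, was the demethylase that fell, from 3.09, 3.21 and 3.31 FPKM in the NC group to 2.34, 2.14 and 2.64 FPKM in the siEIF1 group. There was no overlap, and the log2 fold change was -0.42 (SE 0.075, edgeR adjusted p = 0.0016). Its paralog KDM1A, the catalytic subunit of the CoREST complex, was at 11.4 to 12.4 FPKM in the NC and 11.5 to 12.9 FPKM in the siEIF1 group, and its log2 fold change was 0.085 (SE 0.051). KDM6A and KDM6B, the H3K27 demethylases, were at 0.14 and -0.11 and did not pass the test. KDM4D had the lowest estimate of the erasers, -0.44, with an error of 0.35 at 0.07 to 0.23 FPKM.

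Of 18 deacetylases, 5 rose (27.8%, against 10.2% of all tested genes) and the other 13 did not pass the test. HDAC1, the catalytic subunit of the NuRD, Sin3 and CoREST complexes, stood at 14.0, 13.5 and 13.4 FPKM in the NC and at 15.7, 15.4 and 14.6 FPKM in the siEIF1 group (log2 fold change 0.18, SE 0.054, edgeR adjusted p = 0.029). The groups did not overlap, but the call was lost in 4 of the 6 fits with 1 library left out. SIRT5, a mitochondrial enzyme that removes succinyl and malonyl groups, was the sirtuin with the largest increase among those that rose, from 1.94, 1.91 and 1.91 FPKM to 2.37, 2.19 and 2.45 FPKM. Its log2 fold change of 0.30 (SE 0.059, edgeR adjusted p = 0.0027) passed with each library left out. SIRT3, the main mitochondrial deacetylase, rose by 0.20, HDAC11 by 0.18 and HDAC7 by 0.15 on the log2 scale, and these calls were lost in 6, 5 and 5 of those 6 fits, and that of HDAC7 also with RLE scaling. Of 23 tested partners in deacetylase complexes, 6 rose and 1 fell. MTA1 and CHD4, subunits of NuRD, rose by 0.34 (SE 0.045) and 0.30 (SE 0.050), SAP30 of the Sin3 complex rose by 0.34 (SE 0.065), and MBD3, the NuRD scaffold, fell by 0.19 on the log2 scale.

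The largest increases among the members were those of the 3 deiminases. PADI1, which citrullinates epidermal proteins, stood at 0.49, 0.42 and 0.55 FPKM in the NC and at 0.96, 1.14 and 1.05 FPKM in the siEIF1 group, a fold change of 2.18 (log2 fold change 1.12, SE 0.14, edgeR adjusted p = 0.00011). PADI2, the most widely expressed deiminase, stood at 0.30, 0.30 and 0.17 FPKM against 0.59, 0.48 and 0.52 FPKM (log2 fold change 1.07, SE 0.21, edgeR adjusted p = 0.0026). PADI3, which acts on hair follicle proteins, had only 5, 10 and 10 counts in the NC and 35, 19 and 43 counts in the siEIF1 group (log2 fold change 1.83, SE 0.38, edgeR adjusted p = 0.0043). It passed the filter on low counts only through its siEIF1 libraries. For each of these genes, every siEIF1 library was above every NC library, but at levels of about 1 FPKM or less. Without NC replicate 3, the lowest for PADI2, its log2 fold change was 0.84, and without siEIF1 replicate 1 it was 0.99, both under the fold limit though past the adjusted p. Summed over the family, the level was 0.82 ± 0.017 FPKM in the NC and 1.85 ± 0.081 FPKM in the siEIF1 group (SD, n = 3).

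The 3 genes lie together on chromosome 1, with PADI2 on the minus strand (chr1:17066761-17119451) and PADI1 (chr1:17205128-17246007) and PADI3 (chr1:17249098-17284233) on the plus strand, over 217473 bases. Of 14 other tested genes within 500000 bases on either side, LINC02783 and RCC2 rose by 0.29 and 0.17 on the log2 scale and CROCCP2 fell by 0.23, with a median of 0.077 over the 14. LINC02783 lies between PADI2 and PADI1. PADI1 and PADI2 overlap no annotated gene on the opposite strand. Their RefSeq promoters (chr1:17204878-17205177, plus strand, and chr1:17119402-17119701, minus strand, GRCh38.p14) are also shown. They hold none of the E2F strings and carry no capitals. The same was so for most tested genes, of which 6.49% held a match.
PADI1: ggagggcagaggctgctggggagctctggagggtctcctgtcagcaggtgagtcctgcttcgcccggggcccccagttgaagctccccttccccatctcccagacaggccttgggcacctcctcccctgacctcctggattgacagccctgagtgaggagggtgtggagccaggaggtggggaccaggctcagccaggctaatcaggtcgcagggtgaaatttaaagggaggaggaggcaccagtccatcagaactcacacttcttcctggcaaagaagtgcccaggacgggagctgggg
PADI2: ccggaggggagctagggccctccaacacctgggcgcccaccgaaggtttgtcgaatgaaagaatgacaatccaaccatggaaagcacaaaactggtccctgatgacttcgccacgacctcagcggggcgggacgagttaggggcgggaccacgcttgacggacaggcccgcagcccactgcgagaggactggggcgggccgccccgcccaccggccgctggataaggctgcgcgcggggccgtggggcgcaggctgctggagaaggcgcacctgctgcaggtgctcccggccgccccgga

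**Figure D3:**
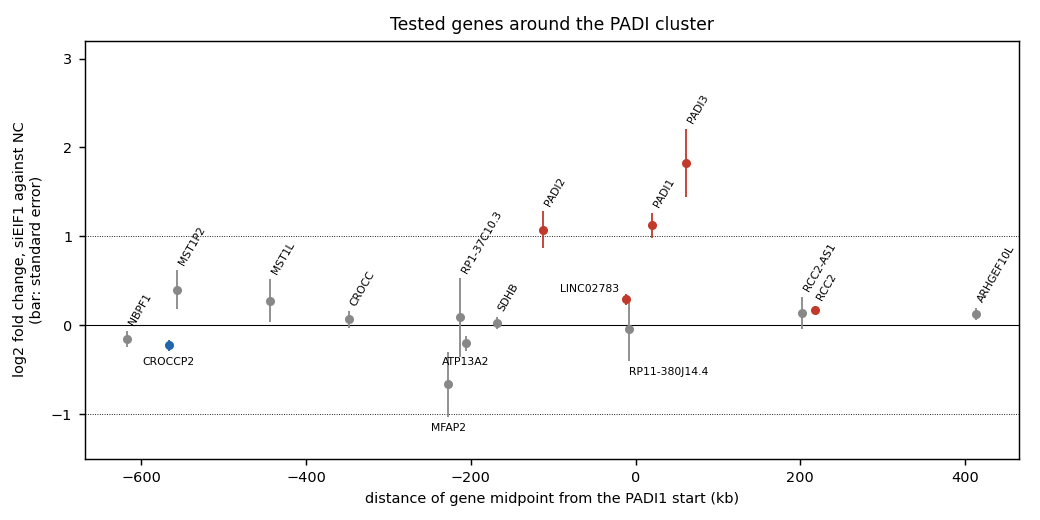
Log2 fold change of siEIF1 against NC with its standard error (y axis) for the tested genes around the PADI cluster, by the distance of each gene's midpoint from the PADI1 start in kb (x axis); red, blue and grey mark genes that rose, fell or did not pass the test, and dotted lines stand at -1 and 1. PADI1, PADI2 and PADI3 lie above the upper line, and the other 14 genes lie between the lines.

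**Figure D4:**
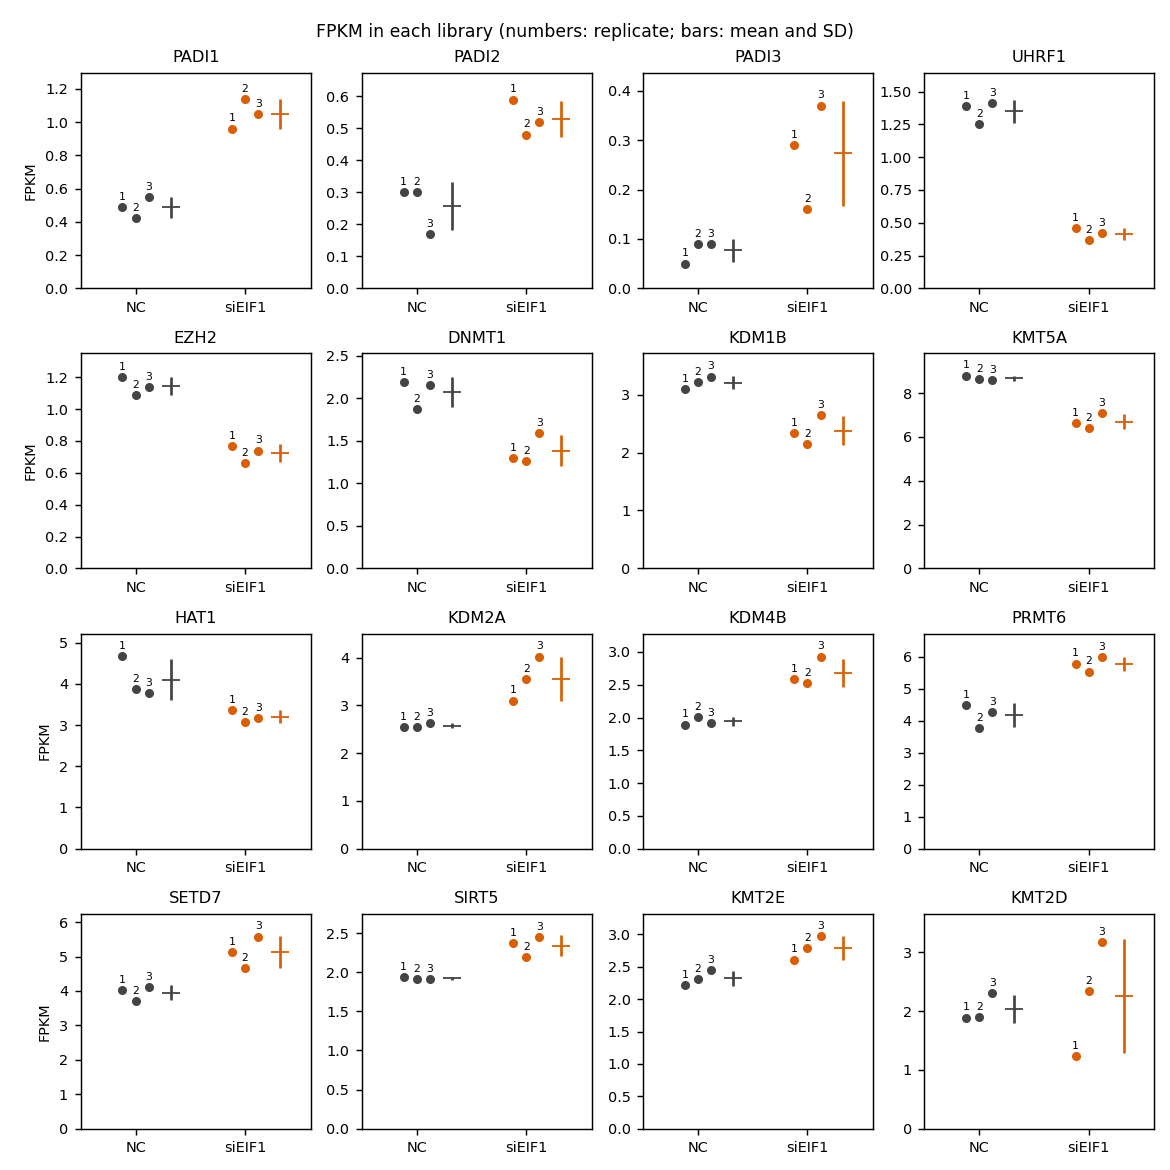
FPKM (y axis, from 0) in each of the 6 libraries for 16 members; points are libraries numbered by replicate, and the horizontal and vertical bars are the group mean and SD. The groups do not overlap in any panel except that of KMT2D, where the siEIF1 libraries spread from 1.24 to 3.18.

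Shares within pairs of close relatives are given as well. UHRF1 made up 28.0%, 28.4% and 30.6% of the summed UHRF1 and UHRF2 FPKM in NC replicates 1 to 3, and 13.1%, 12.3% and 12.2% in siEIF1 replicates 1 to 3. EZH2 made up 18.8%, 16.6% and 17.2% of EZH2 and EZH1 in the NC group and 11.7%, 10.8% and 11.2% in the siEIF1 group. DNMT1 went from 66.4%, 61.3% and 62.7% to 53.3%, 51.6% and 54.6% of DNMT1 and DNMT3A. In all 3 pairs the first gene lost share. The opposite held for HDAC1, whose share of HDAC1 and HDAC2 rose from 62.6% ± 0.69 to 67.7% ± 1.5, and for KDM1A, whose share of KDM1A and KDM1B rose from 78.6% ± 0.30 to 83.9% ± 0.78 (SD, n = 3). In 12 of 15 pairs the shares did not overlap between groups, and in the other 3 (PADI2 and PADI3, KDM4A and KDM4C, KDM5B and KDM5A) they did. A gene of the pair had itself passed the test in 10 of the 15 pairs, of which 8 did not overlap, so part of this count follows from values already given. Of the other 5 pairs, 4 did not overlap. No such count was made over other pairs of genes, so 12 of 15 has no background. Among single tested genes, 35.0% did not overlap in FPKM. These shares are a description, since 3 libraries against 3 cannot give a two-sided exact permutation p below 0.1. Their size also depends on the gene lengths behind the FPKM.

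**Figure D5:**
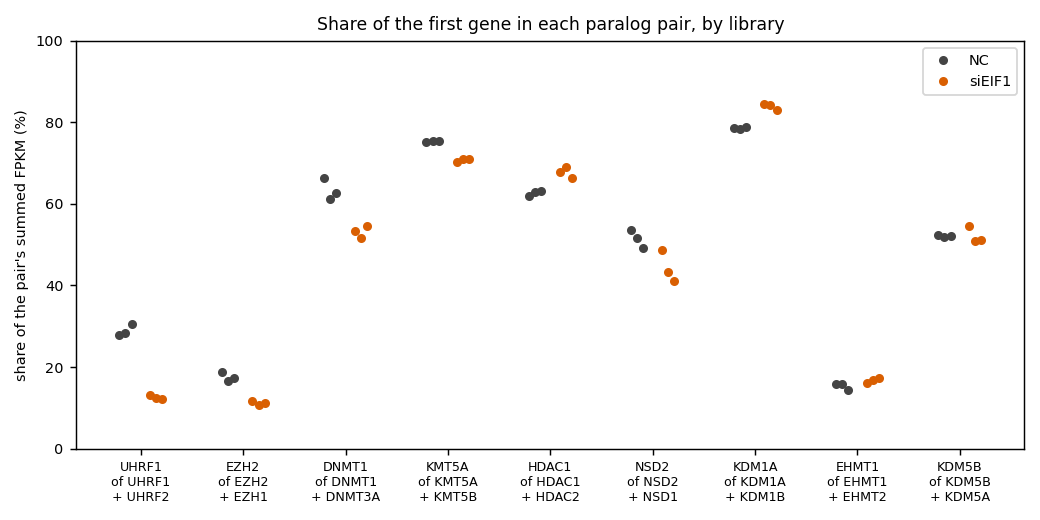
Share of the first gene in the summed FPKM of a pair of related genes, in percent (y axis), for 9 pairs (x axis), with 1 point per library, NC in dark grey and siEIF1 in orange. UHRF1, EZH2, DNMT1, KMT5A and NSD2 lose share in the siEIF1 libraries, HDAC1, KDM1A and EHMT1 gain it, and the points of KDM5B overlap.

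The levels of the members spanned a wide range. The most abundant were PRMT5 at 36.1 FPKM over all 6 libraries, PRMT1, the main asymmetric arginine methyltransferase, at 28.6, KAT2A at 17.7, HDAC1 at 14.4 and KDM1A at 12.1 FPKM. Of these 5, HDAC1 alone passed the test. At the other end, 20 of the 87 tested members had a mean under 1 FPKM, and the 3 deiminases and UHRF1 are among them. Summed over all members of a class, the writers were at 219 ± 3.4 FPKM in the NC and 213 ± 8.6 FPKM in the siEIF1 group, and the erasers at 141 ± 2.0 and 147 ± 4.9 FPKM (SD, n = 3). The siEIF1 libraries of the writers enclosed the NC range, and the erasers of the siEIF1 libraries, between 143.95 and 152.78 FPKM, lay above the NC libraries, between 139.5 and 143.54 FPKM. These sums have no background from other sets of genes.

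Modifying enzymes that the names above leave out were also examined. Of 26 tested modifiers outside these names, SUV39H1, which trimethylates H3K9, fell by 0.65 on the log2 scale (SE 0.13, edgeR adjusted p = 0.0034), JMJD6, a lysine hydroxylase, by 0.47 and HSPBAP1, a JmjC-domain protein, by 0.43, and the other 23 did not pass. Of 13 histone kinases and ubiquitin enzymes, 7 fell. BRCA1, which with BARD1 ubiquitinates H2A, fell by 1.95 (SE 0.12, edgeR adjusted p = 3.77e-07), BUB1, which phosphorylates H2A at centromeres, by 1.63, and HASPIN and AURKB, which phosphorylate H3 in mitosis, by 1.35 and 0.67. BARD1 fell by 0.97, VRK1, an H3 kinase, by 0.65, and RNF20, the H2B ubiquitin ligase, by 0.29. BUB1 and AURKB also belong to the list of G2/M genes.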

How the data were processed

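RNA-seq of 3 NC and 3 siEIF1 libraries of ARPE-19 cells was analysed, grouped by sample title. Per the labels and the study's methods, the authors trimmed reads with FASTX-Toolkit 0.0.13, aligned them to GRCh38 with HISAT2 and counted uniquely mapped reads. The authors deposited raw counts, used here for all tests, and FPKM, which is rounded, so that levels near 0 are coarse. The gene lengths behind the FPKM are not given and for some members were not those of the canonical transcripts. Comparisons, sums and shares of FPKM between genes depend on these lengths. The counting program, its strand setting and the annotation are not given in the sources used here. Of the 27 members past the test, 16 overlap a gene on the other strand, and HDAC1, PRMT1, KMT5A and KAT7 have pseudogene copies in the table, so their counts are less certain.

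Counts were filtered with filterByExpr and fitted with edgeR 4.0.16 (TMM, quasi-likelihood test, Benjamini-Hochberg adjustment over 16749 genes) in R 4.3.3, after the method was tested on simulated data, in which false calls ran somewhat above the nominal rate. The SE was taken from the F statistic. FPKM served for levels and for limma 3.58.1, and DESeq2 1.42.0 was an alternative. Positions and transcript lengths came from GENCODE release 44 and promoters from RefSeq, in which 79 of 88 members were found. SETD1B, DNMT3L, HDAC5, PADI3, KAT6A, NSD3, SIRT7, DOT1L and KAT8 were not matched. PRMT8, KDM4E, KDM4F and PADI4 were not analysed here. Some results on listed genes are not reported here.

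Genes were named in the text if they were members past the test, paralogs of one, the most abundant of their family, or the first 3 by p of a list; others were named after their values were seen. The members, lists and motif strings were chosen with earlier results of these data known. Depth, between 26499929 and 31431479 counts, limits members with few counts, as the standard errors show.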

Additional observations from a re-analysis of the deposited data

How the results depend on the processing

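The number of members that rose, 17, was 11 with DESeq2, 8 with limma on log2(FPKM + 1), 8 with limma on log2(FPKM + 0.1), 3 with limma on log2(FPKM + 1) without a filter, and 10 at an adjusted p under 0.01. The share of all tested genes that rose, 10.2%, was 9.82%, 6.39%, 6.41%, 1.94% and 5.30% in these settings. The number that fell, 10, was 4 with the unfiltered limma fit and 5 at an adjusted p under 0.01, where 2.73% and 5.82% of all genes fell. Members called higher by fold, 3, came to 0, 1 and 0 in those limma fits, and the member called lower was not called with a pseudocount of 1 (0 with and without the filter), since a pseudocount understates the fold of genes at low FPKM. A fold limit of 1.5 gave 2 called lower. PADI3 was not tested by DESeq2 or with at least 10 counts in every library, so 2 were called higher there. The eraser median of 0.090 was 0.046 with limma on log2(FPKM + 1), with or without the filter.

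Leaving out 1 library gave 9 to 19 members that rose, 7 to 9 that fell (6.60% to 10.1% and 6.63% to 10.4% of all genes), 2 to 3 called higher and an eraser median of 0.053 to 0.13. Of 27 members past the test, 15 passed in all of these fits (9 higher, 6 lower), and 3 passed in none of them (KDM5B, SETD4 and SIRT3). UHRF1, EZH2, KMT5A, KDM1B, PADI1, KDM4B and PRMT6 passed under every alternative that was run. RLE and upper-quartile scaling gave 15 and 17 higher members (10% and 10.1% of all genes) and 11 and 10 lower members (10.6% and 10.4% of all genes).

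With the replicate number as a block, 23 members rose and 14 fell, as did 12.8% and 12.7% of all tested genes. Same-numbered libraries deviated together with correlations of 0.149, 0.0946 and 0.128, not all above 0.1, although every siEIF1 library correlated best with its own number, a hint from the data and not from the design. The numbers were therefore not taken as pairs.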
